A study of Mus musculus with 26 samples.

Results

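The genes that write, read and erase DNA methylation, and the genes of the histone methyltransferase EZH2 complex, were followed in CD8+ T cells during growth of a leukemia. The members were 10 listed genes (*Dnmt1*, *Dnmt3a*, *Dnmt3b*, *Uhrf1*, *Tet1*, *Tet2*, *Tet3*, *Ezh2*, *Ezh1* and *Suz12*) of 35865 annotated genes, and all 10 passed the filter on low counts. The cells were Tg101 cells, whose transgenic T cell receptor recognizes the murine leukemia line C1498, and they came from donors on a Rag2-/- background, which cannot rearrange receptor genes of their own. Naive Tg101 cells were transferred into B6.SJL or C57BL/6 mice that received C1498 cells intravenously 1 day later. The text of the paper does not say which of these hosts were used for RNA-seq. The Tg101 cells were sorted by flow cytometry for low-input RNA-seq. The labels give the genotype as wild type, the strain as C57BL/6 and the age as 6 weeks.

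The 14 low-input libraries fell into 7 groups. The 3 control libraries came from spleens of mice without leukemia, with replicates 1 and 2 at day 0 and replicate 3 at day 18. From leukemia-bearing mice there were 2 liver libraries at day 7 (early), 3 at days 13, 13 and 14 (mid), and 2 at days 18 and 16 (late), in replicate order. The spleen of leukemia-bearing mice gave 2 libraries at day 7, 1 at day 14, and 1 at day 18 of undivided cells, selected for undiluted CellTrace Violet, a dye that is shared out at each division. The undivided group was therefore set by a gate on division. Control libraries were from spleen, so tissue and leukemia cannot be told apart in the comparisons of liver with control. The treatment labels read naive Tg101 for control replicates 1 and 2, and Tg101 from untreated mice for replicate 3. These labels do not mention transfer. Transfer and time in a host may therefore differ as well in each comparison with control, and cannot be told apart from the rest. The undivided cells were from spleen as well, so tissue and division cannot be told apart in late liver against undivided. Control replicate 1, mid replicate 1 and late replicate 1 carried TG in their titles and all others XC, and this series was a term of the model. The labels do not say that libraries came from separate mice, so p-values measure the spread between these libraries. Estimated counts per library ranged from 22918996 to 71358287. Levels are CPM, counts relative to the library total, scaled by TMM. Each library is a bulk sample of sorted cells, in which fewer cells expressing a gene and less RNA per cell cannot be told apart.

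DNMT1 copies methylation onto the new strand after DNA replication, and UHRF1 recruits it by binding hemimethylated CpG sites. DNMT3A and DNMT3B methylate unmethylated CpG sites, and the TET enzymes oxidize 5-methylcytosine, which starts its removal. EZH2 and EZH1 are alternative catalytic subunits of Polycomb repressive complex 2 (PRC2), which methylates histone H3 at lysine 27, and SUZ12 is a core subunit that the complex needs. In T cells, de novo methylation and EZH2 act in the silencing of genes during differentiation.

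The promoters are shown because the 3 members with the largest rises (below) were the 3 whose RefSeq start regions held the words TTTCGCGC or TTTGGCGC. These are forms of the site of E2F factors, which bind promoters of DNA replication genes. RefSeq windows on GRCm38.p6, from 250 bases before to 50 after a start site, were searched on both strands. There were 15 windows for the 10 members. TTTCGCGC was in 0.323%, TTTGGCGC in 0.514% and either word in 0.813% of 32851 windows of this length. Each match lies on a line below, 5′ to 3′ on the gene's strand, with the matched word or its reverse complement in capitals.
Uhrf1, chr17:56304063-56304312 (+), the 250 bases before a start at 56304313: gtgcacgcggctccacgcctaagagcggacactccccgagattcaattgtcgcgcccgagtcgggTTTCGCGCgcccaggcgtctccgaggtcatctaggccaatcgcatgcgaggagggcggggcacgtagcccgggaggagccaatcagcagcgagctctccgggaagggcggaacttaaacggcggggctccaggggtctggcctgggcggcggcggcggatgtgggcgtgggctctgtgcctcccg
Ezh2, chr6:47595009-47595038 (-), across the start at 47595030: gggttgctgcgTTTGGCGCtcggtccggtc
Dnmt1, chr9:20952824-20952853 (-), before a start at 20952623: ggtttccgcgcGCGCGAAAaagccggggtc
Dnmt1, chr9:20952574-20952603 (-), after the same start: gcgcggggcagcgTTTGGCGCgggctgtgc

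Neither word was found in the other window of *Uhrf1*, the other windows of *Dnmt1*, or any window of the other 7 members, *Tet1* included. The matches describe letters and not binding, and their link to the rises was not tested. The *Dnmt1* window belongs to the start of transcript Dnmt1-203, which held at most 1.4% of the TPM (abundance scaled for length and depth) of *Dnmt1* in any low-input library. The largest share, 38.7% to 63.1%, was on Dnmt1-201, which starts upstream in a window without a match.

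Both maintenance genes rose, and *Uhrf1* had the largest log2 fold change of the 10 members. *Uhrf1* was at 12.0, 11.9 and 13.4 CPM in the controls, at 277, 134 and 330 CPM in the mid livers and at 365 and 278 CPM in the late livers. The lowest mid or late library, at 134 CPM, was far above the controls, which lay close together. *Uhrf1* rose in mid liver by a log2 fold change of 4.28 ± 0.85 (SE) with an adjusted p of 0.0220, and in late liver by 4.63 ± 0.90 with an adjusted p of 0.0134 (edgeR quasi-likelihood test, Benjamini-Hochberg). *Dnmt1* was at 66.0, 137 and 139 CPM in the controls, at 295, 263 and 488 CPM in the mid livers and at 267 and 357 CPM in the late livers. The groups did not overlap, although control replicate 1 was well below the other controls. *Dnmt1* rose by 1.66 ± 0.28 in mid (adjusted p = 0.0217) and by 1.58 ± 0.31 in late liver (adjusted p = 0.0119).

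The de novo methyltransferases rose less. *Dnmt3a* was at 74.4, 104 and 88.8 CPM in the controls, at 121, 185 and 165 CPM in the mid livers and at 133 and 156 CPM in the late livers. Its log2 fold change was 0.79 ± 0.23 in mid (adjusted p = 0.0330) and 0.75 ± 0.25 in late liver (adjusted p = 0.0461), which is near the threshold of 0.05. The mid call of *Dnmt3a* was lost without the series term (adjusted p = 0.0981), with day 0 controls only (0.0901), in the XC series alone (0.190) and whichever replicate was left out. The late call of *Dnmt3a* was lost without the series term (adjusted p = 0.149), with day 0 controls only (0.108), with counts scaled from TPM (0.0876), with a filter of 50 counts (0.0559), with first runs only (0.0525), in the XC series alone (0.296) and whichever replicate was left out. *Dnmt3b* was at 13.3, 13.5 and 13.6 CPM in the controls, the tightest of all members, at 22.4, 24.7 and 26.3 CPM in the mid livers and at 24.0 and 28.8 CPM in the late livers. It rose by 0.84 ± 0.19 in mid (adjusted p = 0.0227) and by 0.96 ± 0.21 in late liver (adjusted p = 0.0144). The mid call of *Dnmt3b* was lost with day 0 controls only (adjusted p = 0.0508) and the late call with counts scaled from TPM (adjusted p = 0.0545). For neither gene did a mid or late library overlap the controls.

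Of the erasers, *Tet1* fell, and the other two did not pass the threshold in the edgeR test. *Tet1* was at 13.8, 23.3 and 17.8 CPM in the controls, at 3.96, 6.38 and 4.47 CPM in the mid livers and at 2.00 and 5.08 CPM in the late livers. The highest liver value was thus under the lowest control value. *Tet1* fell by 1.89 ± 0.32 on the log2 scale in mid (adjusted p = 0.0217) and by 2.36 ± 0.38 in late liver (adjusted p = 0.00925). *Tet3* was at 191, 290 and 158 CPM in the controls, at 95.7, 159 and 133 CPM in the mid livers and at 95.4 and 149 CPM in the late livers. Its log2 fold change was -0.76 ± 0.26 (adjusted p = 0.0519) and -0.78 ± 0.30 (adjusted p = 0.0659), and mid replicate 2 overlapped control replicate 3. In mid liver *Tet3* passed in 7 of 10 alternatives, not counting each replicate left out in turn (adjusted p = 0.0353 by DESeq2). Among the 10 is day 0 controls only, which has the same libraries as leaving out control replicate 3. *Tet2* was at 55.5, 66.6 and 71.9 CPM in the controls, at 37.3, 78.6 and 57.9 CPM in the mid livers and at 26.9 and 55.5 CPM in the late livers. Late replicate 2 and control replicate 1 had nearly the same level. The log2 fold change of *Tet2* was -0.23 ± 0.20 (adjusted p = 0.379) in mid and -0.64 ± 0.23 (adjusted p = 0.0530) in late liver, and its low values were those of the TG liver libraries.

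The catalytic subunits of PRC2 moved in opposite directions in mid liver. *Ezh2* was at 20.8, 20.0 and 12.8 CPM in the controls, at 123, 61.6 and 114 CPM in the mid livers and at 100.3 and 105 CPM in the late livers. It rose by 2.46 ± 0.61 in mid (adjusted p = 0.0269) and by 2.47 ± 0.65 in late liver (adjusted p = 0.0250), with no overlap between groups. With day 0 controls only, *Ezh2* passed in neither (adjusted p = 0.0686 and 0.0627). *Ezh1* was at 98.7, 143 and 122 CPM in the controls, at 40.2, 90.4 and 70.8 CPM in the mid livers and at 52.9 and 83.8 CPM in the late livers, all under the lowest control. *Ezh1* fell by 0.93 ± 0.25 on the log2 scale in mid liver (adjusted p = 0.0274), and its late value of -0.76 ± 0.28 did not pass (adjusted p = 0.0577). The mid call of *Ezh1* was lost without the series term (adjusted p = 0.134) and in the XC series alone (adjusted p = 0.199). *Suz12* was at 21.9, 39.8 and 36.1 CPM in the controls, at 37.9, 62.5 and 66.9 CPM in the mid livers and at 25.4 and 73.9 CPM in the late livers. The lowest value in each of these groups was the TG library. With the series in the model, *Suz12* rose by 0.76 ± 0.20 in mid (adjusted p = 0.0270), and its late value of 0.62 ± 0.22 did not pass (adjusted p = 0.0521). That late value was 0.22 without late replicate 2 (adjusted p = 0.568) and 0.96 without late replicate 1 (adjusted p = 0.0779). The mid call of *Suz12* was lost without the series term (adjusted p = 0.228), on counts scaled from TPM (adjusted p = 0.0669) and with day 0 controls only (adjusted p = 0.0731).

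**Figure D1:**
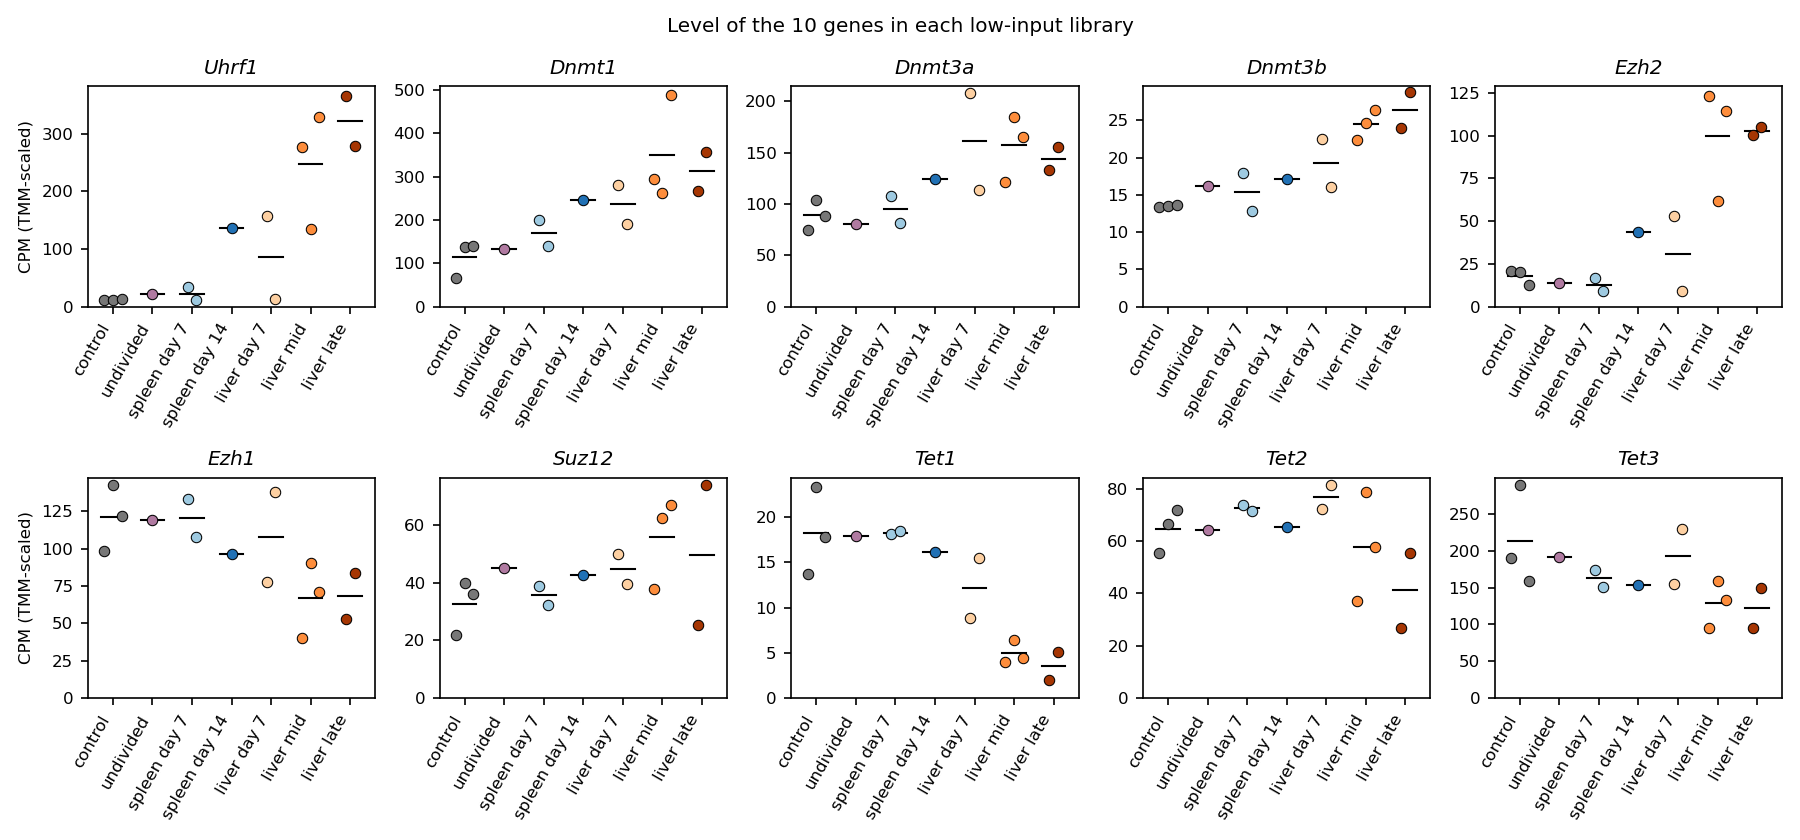
Level of each gene in CPM (vertical axis, linear, from 0) in the 14 low-input libraries. Points are libraries, coloured by group, and lines are group means. The *Uhrf1* and *Ezh2* points of the mid and late livers lie above every control, and the *Tet1* points below every control.

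In all, 6 members rose and 2 fell in mid liver, where 31.3% of the 14600 genes tested changed, and 5 rose and 1 fell in late liver, where 37.5% changed. By overlap, 5 members lay above and 2 below all controls in mid liver, where 42.2% of 15449 genes were separated from control in either direction. In late liver it was 5 above and 4 below, beside 56% of genes. Each call on a member depended on single libraries. Without control replicate 1, control replicate 2, mid replicate 1 or mid replicate 3, no member passed in mid liver (at most 1 gene passed at all). Without control replicate 1, late replicate 1 or late replicate 2, no member passed in late liver (148, 0 and 0 genes passed). Within the XC series alone no gene passed in either comparison, and the log2 fold changes there were 4.16 and 4.44 for *Uhrf1*, 1.41 and 1.36 for *Dnmt1*, 2.39 and 2.67 for *Ezh2*, and -1.96 and -2.03 for *Tet1* (mid and late). The direction held for every member in all 310 values from the alternatives to these comparisons. The alternatives reuse the same libraries, so these values are not independent of each other. Day 0 controls only and leaving out control replicate 3 even use an identical set of libraries, so the total counts that set under 2 names.

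**Figure D2:**
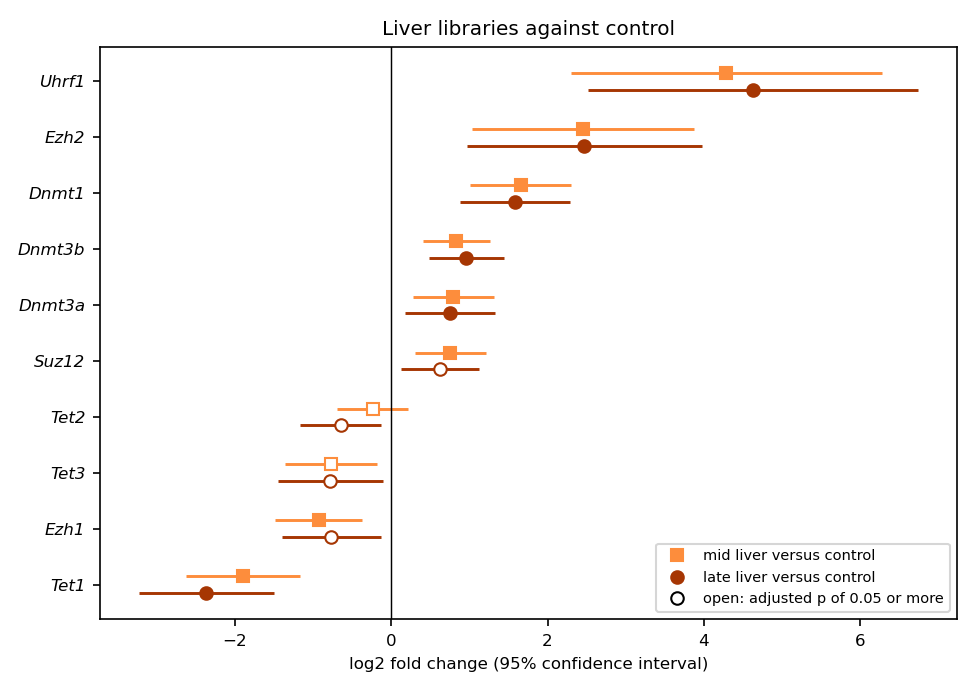
Log2 fold change (horizontal axis) with its 95% confidence interval for each gene in mid liver (squares) and late liver (circles) against control. Filled symbols passed an adjusted p of 0.05. *Uhrf1* stands highest at 4.28 and 4.63, and *Tet1* lowest at -1.89 and -2.36.

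The late and mid livers were compared to ask whether the genes moved further with time. No gene passed (0% of 14600, 780 at an unadjusted p under 0.05 by edgeR and 32 by DESeq2's adjusted p), and no member had an unadjusted p under 0.05. The interval of the late minus mid difference ran from -0.78 to 0.63 for *Dnmt1* and from -0.93 to 0.11 for *Tet2* (log2, 95%). For *Uhrf1* it ran from -1.60 to 2.29, so changes of several-fold in either direction were within the error.

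The day 7 livers did not resemble each other. In replicate 1 *Uhrf1* was at 157 CPM, *Ezh2* at 52.8 and *Dnmt1* at 280, and in replicate 2 they were at 13.5, 9.0 and 191 CPM. For *Uhrf1* and *Ezh2*, replicate 1 was thus above every control and replicate 2 was near or below them. *Tet1* was at 8.86 CPM in replicate 1, under the lowest control, and at 15.5 CPM in replicate 2, within the controls. *Dnmt3a* reached 208 CPM in replicate 1, its highest level in any library, against 114 CPM in replicate 2. *Tet2* was at 72.2 and 81.6 CPM, both above the highest control. *Dnmt3b* was at 22.5 and 16.0 CPM, *Ezh1* at 77.5 and 138 CPM and *Tet3* at 155 and 229. For each of these genes replicate 1 was nearer to the later livers than replicate 2. *Suz12* was at 49.8 and 39.6 CPM, both inside the range of the mid and late livers (25.4 to 73.9 CPM). The comparison with control gave 0% of 14600 genes (1493 at an unadjusted p under 0.05, and 350 by DESeq2). *Uhrf1* had a log2 fold change of 2.82 ± 0.87 (adjusted p = 0.455), *Dnmt1* of 0.90 ± 0.31 (adjusted p = 0.459) and *Dnmt3a* of 0.73 ± 0.26 (adjusted p = 0.466). Without replicate 2, 1902 genes passed, among them *Uhrf1*, *Ezh2* and *Dnmt3a* (3.70, 1.65 and 1.10), a comparison of 1 early library whose spread is taken from the other groups. Without replicate 1, 1 gene and no member passed.

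In the spleen at day 7, *Uhrf1* was at 33.4 and 12.0 CPM, *Dnmt1* at 200 and 139, *Ezh2* at 16.4 and 9.24, and *Tet1* at 18.1 and 18.4. Of these, *Uhrf1* and *Dnmt1* of replicate 1 stood above every control, and *Dnmt1* of replicate 2 was level with the highest control. *Ezh2* of replicate 2 lay below every control. No gene passed in early spleen against control (0% of 15449, 970 at an unadjusted p under 0.05 and 14 by DESeq2), and the log2 fold changes of the members ran from -0.55 ± 0.29 for *Tet3* to 0.92 ± 0.89 for *Uhrf1*. The single day 14 spleen library had 136 CPM of *Uhrf1*, 43.4 of *Ezh2* and 246 of *Dnmt1*, all above every control, with *Tet1* at 16.2 CPM, within the controls. In this library 6 members lay above and 2 below all controls, beside 51.3% of genes in either direction. It was in no test.

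Undivided cells of leukemia-bearing mice were compared with the controls to separate the presence of leukemia from division. In the undivided library *Uhrf1* was at 22.6 CPM, *Dnmt1* at 132, *Ezh2* at 13.9, *Ezh1* at 119, *Tet1* at 17.9 and *Dnmt3a* at 80.8. Only *Uhrf1*, *Dnmt3b* (16.1 CPM) and *Suz12* (45.1 CPM) of the 10 were above the highest control, and none was below the lowest, beside 40.1% of 15449 genes outside the range of the controls in either direction. No gene passed (0% of 14600, 182 at an unadjusted p under 0.05), with 1 library in the group. The interval of the log2 fold change ran from -1.52 to 3.33 for *Uhrf1* and from -2.25 to 1.73 for *Ezh2*, wide enough to hold a change of several-fold. Late liver against the undivided library gave 0% of 14600 genes as well (3782 at an unadjusted p under 0.05, and 1877 by DESeq2). The log2 fold changes of late liver over undivided were 3.72 ± 1.39 for *Uhrf1* (adjusted p = 0.159), 2.74 ± 1.02 for *Ezh2* (adjusted p = 0.158), 1.52 ± 0.46 for *Dnmt1* (adjusted p = 0.119) and -2.10 ± 0.46 for *Tet1* (adjusted p = 0.102). By DESeq2 these 4 members passed, with 1 undivided library whose spread is taken from the other groups.

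Levels were compared between genes per length, as CPM per kb of the longest coding transcript. In the controls *Ezh1* stood at 23.5 to 33.9, *Tet3* at 14.5 to 26.6 and *Dnmt1* at 11.2 to 23.7 CPM per kb, ranges that overlap in this order. *Uhrf1* was at 3.33 to 3.75 and *Tet1* lowest at 0.957 to 1.62. In the late livers *Uhrf1* stood highest at 77.6 to 102, followed by *Dnmt1* at 45.5 to 60.8 and *Ezh2* at 36.0 to 37.6, ranges that did not overlap, and *Tet1* was lowest at 0.139 to 0.353. The order depended on the scale. In TPM of coding transcripts *Tet3* (26.2, 47.9 and 32.3) stood above *Ezh1* (17.8, 30.8 and 29.6) in every control. In the late livers *Uhrf1* was there at 54.9 and 72.2, *Dnmt1* at 24.2 and 58.9 and *Ezh2* at 20.7 and 36.7, an order that held within each library although the ranges overlapped.

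The ratio of *Ezh2* to *Ezh1* in CPM per kb was 0.318, 0.212 and 0.158 in the controls and 0.176 in the undivided library. It was 4.63, 1.03 and 2.44 in the mid livers and 2.87 and 1.89 in the late livers. *Ezh1* was thus the more abundant in every control and *Ezh2* in every mid and late liver, by a small margin in mid replicate 2. The day 7 livers were at 1.03 and 0.0985, the day 7 spleens at 0.186 and 0.129, and the day 14 spleen at 0.677. The summed level of the 3 *Dnmt* genes over that of the 3 *Tet* genes was 0.899, 1.05 and 1.53 in the controls, 5.18, 2.95 and 5.66 in the mid livers and 5.48 and 4.16 in the late livers. In TPM of coding transcripts the same ratio was lower, at 0.608, 0.757 and 0.991 in the controls, 3.30, 2.17 and 3.72 in the mid livers and 3.73 and 2.76 in the late livers. The ratios are a description with no test, and those in CPM per kb rest on 1 length per gene.

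**Figure D3:**
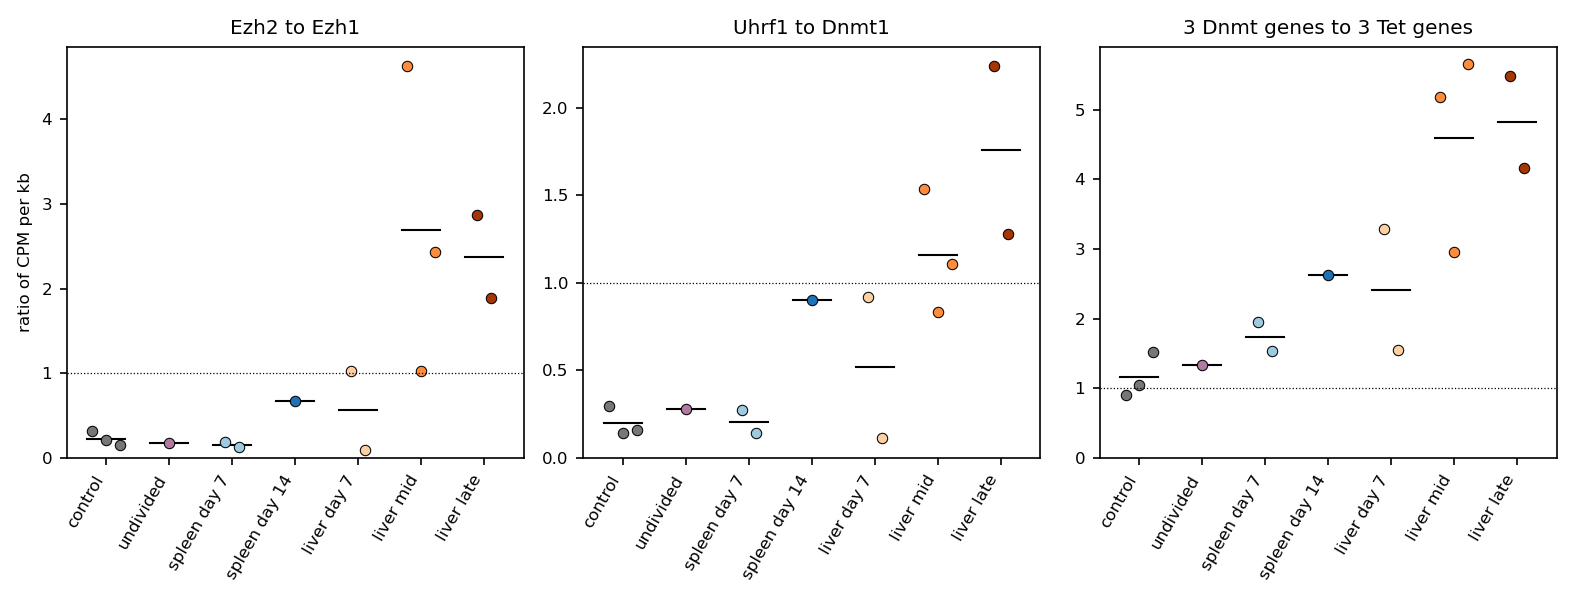
Ratios of CPM per kb (vertical axis, linear, from 0) of *Ezh2* to *Ezh1*, of *Uhrf1* to *Dnmt1* and of the summed 3 *Dnmt* genes to the summed 3 *Tet* genes. Points are libraries, solid lines group means and the dotted line a ratio of 1. *Ezh2* over *Ezh1* lies from 0.158 to 0.318 in the controls and from 1.03 to 4.63 in the mid livers.

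The share of transcripts annotated as retained introns differed between libraries within the methyltransferase genes. Such transcripts of *Dnmt1* together held 39.4%, 17.1% and 18.3% of its TPM in the controls, 41.3%, 7.91% and 6.23% in the mid livers and 28.7% and 4.67% in the late livers, so the groups overlapped, with the high values in the TG libraries. For *Dnmt3b* the mid livers overlapped the controls (9.32% to 15.02% against 10.1% to 22.3%), and the late livers, at 0% and 9.75%, lay below them. Of the *Dnmt1* transcripts, Dnmt1-206 held 15.4%, 12.7% and 16.5% of the TPM of *Dnmt1* in the controls, 4.31%, 5.69% and 3.52% in the mid livers and 2.61% and 2.86% in the late livers. Retained-intron transcripts of *Dnmt3a* held 23.0%, 17.2% and 20.0% of its TPM in the controls, 12.6%, 12.6% and 9.22% in the mid livers and 10.1% and 6.85% in the late livers. For *Dnmt3a* and for Dnmt1-206 no liver library of these times reached a control, and the share over all genes (next) separated the groups likewise. *Suz12* also stayed below the controls in mid but not in late liver, and *Ezh2*, *Tet2*, *Tet3* and *Uhrf1* overlapped them at both times. How many other genes separate the groups in this way is not given here. Retained introns over all genes took 6.25% to 7.10% of TPM in the controls, 5.39% to 6.10% in the mid livers and 4.07% to 5.07% in the late livers, and the part of this shift in the values of single genes was not tested. Dnmt1-206 was singled out after its values were seen, and kallisto's division of reads among overlapping transcripts adds an error that is not shown here.

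The other genes of the pathways followed no single direction. Of 7 maintenance partners, 5 rose and none fell in both mid and late liver, with a median log2 fold change of 1.68 in late liver beside -0.03 over all genes. *Cdca7*, a cofactor of the remodeler HELLS, rose by 4.17 ± 0.82, *Lig1*, a replication ligase whose methylated form binds UHRF1, by 3.57 ± 0.69, *Hells* by 2.90 ± 0.68 and *Cdca7l* by 1.68 ± 0.32 in late liver. *Pcna* was the other member that rose. *Usp7*, which deubiquitinates and stabilizes UHRF1 and DNMT1, had -0.84 (adjusted p = 0.139). Of 9 methylation readers (late median -0.37), none rose, 3 fell in mid and 1 in late liver, beside 31.3% and 37.5% of all genes. The last was *Zbtb4*, which fell by 1.47 ± 0.44 on the log2 scale. *Uhrf2*, the paralog of *Uhrf1*, had a late log2 fold change of 0.05 (adjusted p = 0.859).

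Downstream of the TET enzymes, 5 of 13 genes of active demethylation and base excision rose and 1 fell in mid liver, where 31.3% of all genes changed, and 3 rose and none fell in late liver, where 37.5% changed and the list had a median log2 fold change of 0.23. In late liver these were *Tdg*, which excises the oxidized bases that TET makes (1.5 ± 0.43), the glycosylase *Neil3* (3.14 ± 0.51) and the endonuclease *Apex1* (1.13 ± 0.36). Of 6 tested partners of de novo methylation and TET activity, *Idh1* and *Idh2*, which make the TET cosubstrate 2-oxoglutarate, fell in late liver by 1.82 ± 0.46 and 1.52 ± 0.34 on the log2 scale, and none rose. *Idh1* ranged from 4.38 to 22.8 CPM over the controls. It was at 4.77 and 2.24 CPM in the late livers, so late replicate 1 lay within the range of the controls. In mid liver 1 of the 6 rose and 3 fell, again beside 31.3% of all genes. *Dnmt3l* and *Cxxc4* were too low to be tested. A list of 6 genes was drawn up for the supply of S-adenosylmethionine, the methyl donor. Of these, *Ahcy* rose in late liver (1.45 ± 0.30) and the synthase *Mat2a* was at -0.10 (adjusted p = 0.761). *Ahcyl2*, whose part in that supply was not examined, fell by 0.71 ± 0.21 in late liver, where 37.5% of all genes changed. *Ahcy* was the only one of the 6 that passed in mid liver, beside 31.3% of all genes.

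Among 10 further PRC2 subunits, 3 rose and 2 fell in late liver (median 0.50), and 2 rose and 2 fell in mid liver (median 0.46), beside 37.5% and 31.3% of all genes. The accessory subunit *Phf19* was at 0.918 to 1.17 CPM in the controls and at 32.3 and 26.8 CPM in the late livers (4.69 ± 1.10, adjusted p = 0.0191). Its paralog *Phf1* went from 71.8 to 116 CPM in the controls to 16.1 and 25.2 CPM (-2.12 ± 0.51, adjusted p = 0.0190). *Phf19* and *Phf1* thus changed in opposite directions, as did *Ezh2* and *Ezh1* in mid liver. *Mtf2*, a further accessory subunit, rose by 0.67 ± 0.21 in late liver (adjusted p = 0.0328). The histone chaperone *Rbbp4* rose by 0.89 ± 0.22, and *Lcor*, whose locus makes a PRC2.1 subunit, fell by 1.26 ± 0.30. The core subunit *Eed* had 0.32 (adjusted p = 0.263). Of the demethylases of H3K27, *Kdm6a* fell by 1.18 ± 0.38 in late liver and *Kdm6b* had -0.46 ± 0.54 (adjusted p = 0.516), and neither passed in mid liver.

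Of 19 subunits of PRC1, the complex that reads and extends Polycomb marks, 3 rose and 3 fell in late liver (median -0.01), and 1 rose and 2 fell in mid liver (median -0.36), shares under the 37.5% and 31.3% of all genes. *Kdm2b*, the CpG-binding subunit, rose by 1.43 ± 0.40 and *Cbx6* by 1.16 ± 0.24, while *Cbx7*, a reader of methylated H3K27, fell by 1.51 ± 0.36 and *Phc3* by 0.85 ± 0.29. Of the 3 tested subunits of the H2A deubiquitinase PR-DUB, *Asxl2* fell by 1.09 ± 0.20, and *Bap1* (-0.08 ± 0.19) and *Asxl1* (0.02 ± 0.24) did not pass. *Asxl3* was too low to be tested.

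**Figure D4:**
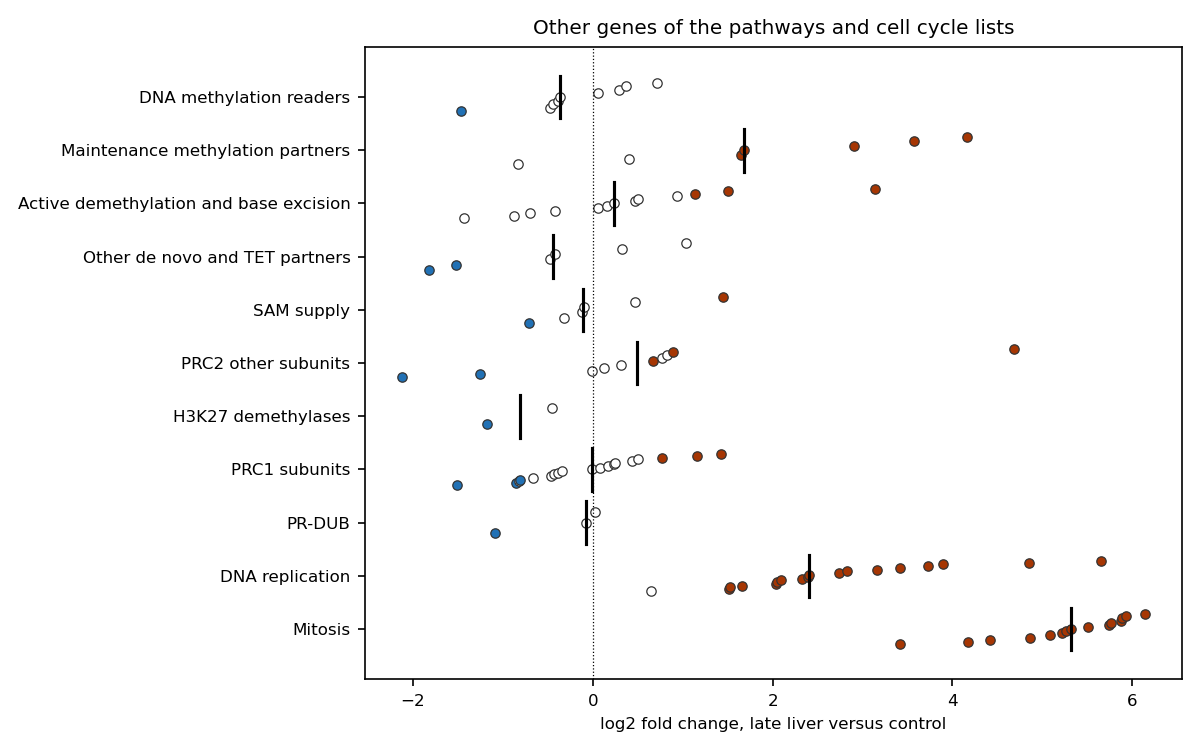
Log2 fold change in late liver against control (horizontal axis) of each tested gene of the lists of other pathway genes and of the cell cycle lists. Red symbols rose and blue fell at an adjusted p under 0.05, open symbols did not pass, and bars are list medians, 1.68 for the maintenance partners and 2.40 for DNA replication.

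Genes of DNA replication and mitosis rose in the same comparisons. All 18 replication genes rose in mid liver and 17 in late liver, where *Cdt1* had 0.65 (adjusted p = 0.0594). Over all genes tested, 31.3% changed in mid liver and 37.5% in late liver. The late median log2 fold change was 2.40, with *Cdc6* at 5.65 ± 1.29, *Rrm2* at 4.85 ± 1.21, *Gins1* at 3.89 ± 0.88 and *Tyms* at 3.72 ± 0.60. All 15 mitosis genes rose in both, with a late median of 5.31, and with *Aurkb* at 6.14 ± 1.38, *Plk1* at 5.93 ± 1.09, *Bub1b* at 5.89 ± 1.27 and *Ccnb2* at 5.87 ± 1.34. The mean of the replication list, in log2 CPM relative to the mean of the controls, was 1.89 in early liver replicate 1 and -0.12 in replicate 2, 1.66 in the day 14 spleen, 0.22 in the undivided library, 1.79 to 2.86 in the mid livers and 2.62 to 3.02 in the late livers. *Ezh2* was at 1.59, -0.95, 1.31, -0.32, 1.82 to 2.82 and 2.52 to 2.58 on the same scale and in the same order. *Dnmt1* was at 1.38, 0.83, 1.19, 0.29, 1.29 to 2.18 and 1.31 to 1.72. It differed from the list in, for example, late replicate 1 (1.31 against 3.02), mid replicate 1 (1.45 against 2.86) and early liver replicate 2 (0.83 against -0.12). Late replicate 1 and mid replicate 1 are TG libraries. The TG control, control replicate 1, was at -0.71 for *Dnmt1* and 0.29 for the list, so *Dnmt1* lay below the list there as well. *Uhrf1*, in the same order, was at 3.66, 0.12, 3.44, 0.86, 3.43 to 4.72 and 4.48 to 4.87. *Tet1* was at -0.14 in the day 14 spleen, where the replication list was at 1.66. It was at -1.01 in early liver replicate 1 and -0.21 in replicate 2. In the mid livers *Tet1* was at -2.16 to -1.48 and in the late livers at -3.13 to -1.81. The part of cell cycle activity in the levels of the members was not tested.

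**Figure D5:**
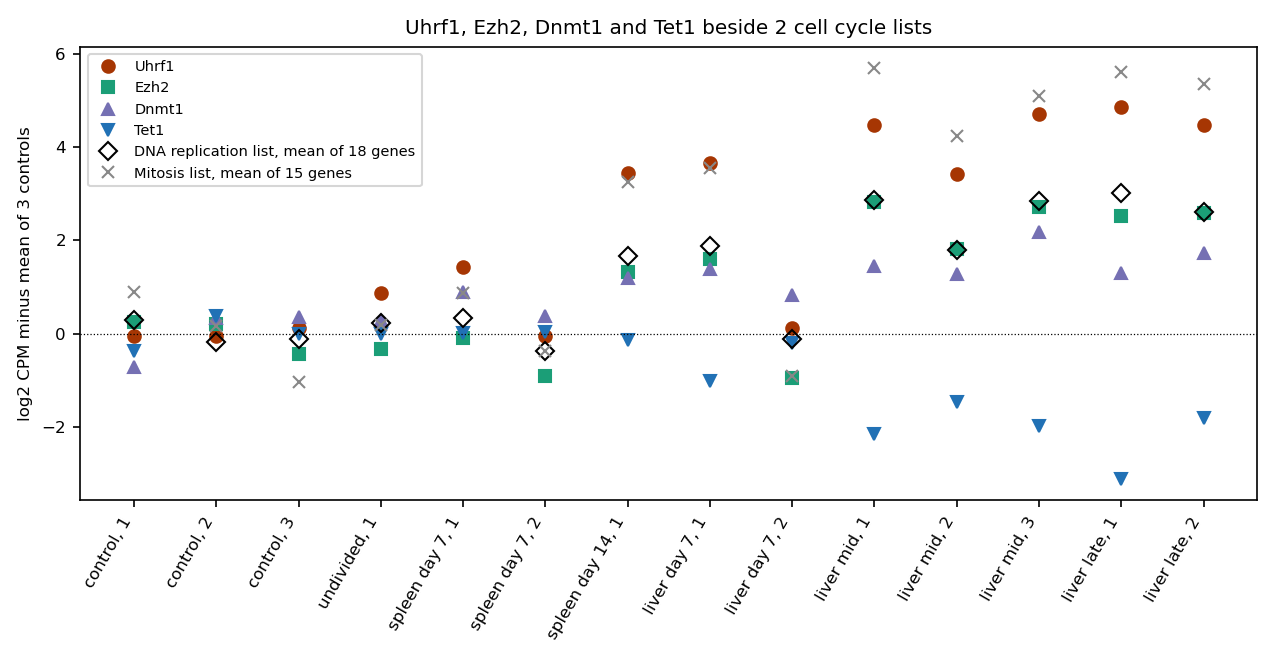
Log2 CPM minus the mean of the 3 controls (vertical axis) of *Uhrf1*, *Ezh2*, *Dnmt1* and *Tet1* and of the mean of the replication and mitosis lists, in each of the 14 low-input libraries (horizontal axis). The replication mean is at 1.89 and -0.12 in the day 7 livers and 1.66 in the day 14 spleen, where *Ezh2* is at 1.59, -0.95 and 1.31.

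The genes most alike to each member were found over the 14 low-input libraries, as those with the smallest root mean square difference of centred log2 CPM. For *Uhrf1* they were *Chaf1a*, a subunit of the replication-coupled chromatin assembly factor (0.28), *Trip13* (0.31) and *Cdca7* (0.33), beside an SD of *Uhrf1* of 1.99. For *Ezh2* they were the H3K36 methyltransferase *Nsd2* (0.24), *Carhsp1* (0.25) and *Hmgb2* (0.28), with an SD of 1.36. For *Dnmt1* they were *Ttf2* (0.18), *Arsb* (0.22) and *Nlrx1* (0.23), for *Dnmt3a* *Ddb1* (0.13), *Ywhag* (0.15) and *Josd1* (0.15), and for *Dnmt3b* *Prrc1* (0.10), *Fgfr1op* (0.11) and *Gabpb1* (0.12). For *Tet1* they were *Sema4b* (0.27), *9930111J21Rik2* (0.27) and *A430078G23Rik* (0.28), for *Tet2* *Uhrf1bp1l*, *Wapl* and *Matr3* (each 0.10), and for *Tet3* *Baz2a* (0.12), *Rprd2* (0.13) and *Herc2* (0.14). For *Ezh1* they were *Pias1* (0.09), *Herpud2* (0.11) and *Prkd2* (0.12), and for *Suz12* *Hnrnpul1*, *Pelp1* and *Lrrc40* (each 0.18).

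The libraries carried the markers of CD8 T cells. The 8 T cell genes summed to 4576 to 10126 CPM in each low-input library, with *Cd8b1* the most abundant on average, and *Cd4* was at 5.35 CPM or less. The 6 hepatocyte genes, of which *Alb* was the most abundant on average over the libraries, summed to 0.210 to 0.325 CPM in the controls, 2.63 to 176 CPM in the mid livers and 65.9 and 290 CPM in the late livers, and *Serpina1a* was at 0 in 7 libraries. Erythroid genes, chiefly *Hbb-bs* on average, summed to 2451, 9861 and 62.7 CPM in the controls and to at most 103 CPM elsewhere. The 6 myeloid and Kupffer cell genes, of which *Csf1r* was the highest on average and *Cd68* in each mid and late liver, summed to 477, 99.96 and 8.18 CPM in the controls and to 3.64 to 49.8 CPM elsewhere. The B cell list (354 to 815 CPM) was nearly all *Ighm*. The immature myeloid list, with *Cd34* highest on average, reached 16.9 CPM in early spleen replicate 2, with *Elane* at 0 in 3 libraries, and the endothelial list, with *Stab2* highest on average, reached 16.3 CPM in control replicate 1, with *Lyve1* at 0 in 7 libraries. The part of these other cells in the member levels was not tested. Late replicate 1 was highest for both the hepatocyte list (290 CPM) and *Uhrf1* (365 CPM), and mid replicate 3, lowest of the mid and late livers for the hepatocyte list (2.63 CPM), had 330 CPM of *Uhrf1*.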

How the data were processed

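The authors quantified transcripts of low-input libraries, sequenced in 2 batches, with kallisto, and the deposited values are estimated counts and TPM per transcript. Kallisto, bcl2fastq and the builds GRCm38 and mm10 are named in the submitters' processing notes, and versions are not given in the sources used here. The 26 runs were summed to 15 libraries, taking titles that differ only by the ending -2 as runs of 1 library. The oligo-dT library was left out of the tests. Transcripts were matched by identifier to GENCODE vM21, which may not be the authors' annotation (116622 of 118783, holding 98.96% to 99.25% of counts). Counts were summed per gene and rounded.

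A gene was tested if 6 or more libraries held 10 or more counts for it. The test was that of edgeR 4.0.16 (quasi-likelihood, robust, two-sided, TMM) in R 4.3.3, with group and series as terms. The fit held 11 libraries (controls, undivided and livers, 14600 genes), or 14 for early spleen (15449 genes). P-values were adjusted over all genes by Benjamini-Hochberg. SE was the log2 fold change over the square root of F. Alternatives were DESeq2 1.42.0, RLE scaling, other filters, no series term, day 0 controls, first runs, all 14 libraries, counts from TPM, each replicate left out and, added after seeing the data, the XC series alone. Log2 CPM used a prior count of 2. Tables and plots were made in Python 3.11.15.

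The members and lists were chosen with earlier results of these data known. Named genes were the 10 members, up to 4 genes per list with the largest late change among those called, all genes of lists under 5, and the 3 genes most alike to each member at a mean of at least 5 CPM. *Usp7*, *Pcna*, *Uhrf2*, *Mat2a*, *Mtf2*, *Eed* and *Cdt1* were named in addition, after their values were seen. Counting intervals are not given, since at these depths the number of libraries limits the precision. All 10 members matched RefSeq start regions. Of the cell type lists, the level of a further marker gene is not reported here.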

Additional observations from a re-analysis of the deposited data

Results flagged for a closer look

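The single day 14 spleen library was in no comparison, and 6 of the 10 members stood above the highest control there and 2 below the lowest, beside 51.3% of 15449 genes outside the range of the controls in either direction. *Uhrf1* was at 136 CPM against a highest control of 13.4, *Dnmt1* at 246 against 139, *Ezh2* at 43.4 against 20.8, *Dnmt3a* at 125 against 104, *Dnmt3b* at 17.1 against 13.6 and *Suz12* at 42.8 against 39.8. *Tet2* lay above every control in both day 7 livers and below every control in both late livers, with means 35.7 CPM apart. The nearest libraries were at 72.2 CPM (day 7 liver) against a highest control of 71.9, and at 55.5 CPM (late liver) against a lowest control of 55.5, and the difference between these times was not tested.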

How the results depend on the processing

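No member changed direction under any alternative in mid or late liver against control, and the alternatives reuse the same libraries. Counts of changed genes did move. In mid liver 4567 genes and 8 members passed, and 1385 and 5 passed without the series term, 2355 and 5 with day 0 controls only, and 0 and 0 in the XC series alone. In late liver 5475 genes and 6 members passed, and 2693 genes passed without the series term and 0 genes and 0 members in the XC series alone. Where edgeR called 0 genes, DESeq2 called 350 (early liver, 1 member, *Uhrf1*), 32 (late against mid), 1877 (late against undivided, 4 members) and 14 (early spleen). Without a filter on low counts edgeR called 1480 (early liver, 2 members, *Uhrf1* and *Dnmt1*), 434 (late against mid), 328 (undivided), 2510 (late against undivided, 4 members) and 642 (early spleen, 1 member, *Uhrf1*). Day 0 controls alone gave 19 genes in early liver. The cause of these shifts was not tested. With each replicate left out in turn, counts ran from 0 to 3157 genes and 0 to 7 members in mid liver, 0 to 4126 and 0 to 5 in late liver, 0 to 1902 and 0 to 3 in early liver, and 0 to 162 genes in early spleen. The undivided and day 14 spleen groups have 1 library, so none could be left out. In late liver *Ezh1*, *Suz12*, *Tet2* and *Tet3*, with adjusted p from 0.0521 to 0.0659, passed in 3 or 4 of 10 alternatives. *Dnmt3a*, which passed in the comparison reported, did so in 4 of 10. These 10 do not count each replicate left out in turn, but include day 0 controls only. That alternative has the same libraries as leaving out control replicate 3, so it is counted under both headings. In mid liver *Tet3* and *Dnmt3a* passed in 7 of 10, *Suz12* in 6, and *Ezh1*, *Ezh2* and *Dnmt3b* in 8, as did *Ezh2* and *Dnmt3b* in late liver. *Uhrf1*, *Dnmt1* and *Tet1* passed in 9 of 10 in both, all but the XC series alone. The side of the threshold of these genes depends on the setting. No paired analysis was possible because the labels do not say which libraries share an animal and give no pairing across groups.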

Other observations

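The oligo-dT library and low-input control replicate 1 share a series and a day. In unscaled CPM, *Suz12* was 67.1 by oligo-dT and 22.5 by low input (ratio 2.98), *Dnmt1* 94.98 and 67.7 (1.4) and *Ezh2* 29.4 and 21.3 (1.38). The ratios of the other 7 members lay between 0.769 (*Tet2*) and 1.02 (*Ezh1*). With 1 library of each kind these differences have no replicate check. For *Dnmt1*, the retained-intron transcript Dnmt1-204 held 24.0% to 37.0% of the gene's TPM in the TG low-input libraries and 1.81% to 4.37% in the XC libraries.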
